A study of Mus musculus with 6 samples.

Results

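The genes described here carry out DNA replication and mitosis, the phases of the cell cycle in which chromosomes are copied and then divided. The list held 35 genes, 16 of replication and 19 of mitosis. It was chosen by name and function, with earlier results of these data known. A row with the gene's name was found for 34 of them, 15 of replication and 19 of mitosis, among the 19613 genes of the table. The intensity of Rrm2, the small subunit of ribonucleotide reductase, was not analysed here, and only its promoter was searched.

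Cells prepare to replicate when Cdc6 and Cdt1 load a ring of Mcm proteins onto origins, and cyclin E and the transcription factor E2F1 start S phase. Later, cyclin B with Cdk1 drives entry into mitosis, and checkpoint kinases, Aurora kinases and kinesin motors attach and separate the chromosomes until Cdc20 triggers exit. In the developing spinal cord these genes are used by dividing neural progenitors, and neurons that have left the cycle turn most of them off. Replication genes are classically activated through E2F sites, and mitosis genes through a cell cycle homology region, CHR, often next to CCAAT boxes.

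The samples were 6 arrays of embryoid bodies with motor neurons, aggregates grown from HBG3 HB9 mouse embryonic stem cells that carry eGFP under the promoter of the motor neuron gene HB9 (Mnx1). All had been exposed to blood fluid of Huntington's disease model mice of the strain B6CBA-Tg(HDexon1)62Gpb/3J, which express the first exon of human huntingtin. This fluid is plasma in the labels and serum in the methods, and it is called serum here. In the methods the donors were males of 10 weeks, before symptoms, and 5% serum for 24 h is described for the assay of the study without a separate protocol for the Huntington samples. The stem cells are a single line, and the embryoid bodies were assayed whole, so each array measured a mixture of neurons, progenitors and other cells. The arrays form 1 group, replicates 2, 4, 5, 6, 7 and 8, and control arrays were not analysed here. Levels, spread and covariation over arrays are therefore described, and no response to the serum can be read from them.

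The values are microarray intensities, given here as log2 intensity. Background was set at a mean of 7.47, the 95th percentile of the 1033 olfactory receptor genes, and 12794 genes (65.2%) were above it. Median intensity per array ran from 296 to 311. Replicate 8 stood slightly apart, with an average Pearson's r over all genes of 0.992 with the other arrays, against 0.994 to 0.995 for the rest, and it was the highest array for 27.5% and the lowest for 26.4% of genes above background. Of the neuron markers 11 of 11 were above background and of the neural progenitor markers 11 of 12, the exception being Pax6. All 7 motor neuron markers measured were above it too, against 3 of 8 pluripotent, 5 of 7 glial, 9 of 13 non-neural and 2 of 5 blood markers. The summed intensity of the neuron markers ran from 47485 to 53667 and that of the progenitor markers from 41972 to 43905. For the motor neuron markers it was 4650 to 5459. It was 1507 to 1665 for the glial, 2822 to 3330 for the non-neural and 1658 to 1861 for the pluripotent markers. The lists differ in length and the sums include markers below background, so they do not give shares of cell types. The part of cells other than neurons and progenitors in the results was not tested. In such a mixture, fewer dividing cells and less RNA per dividing cell cannot be told apart.

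The promoters of both groups were searched for the letters of their classical sites, in windows of 300 bases taken from RefSeq on GRCm38.p6, which run from 250 bases before to 50 bases after the start of each gene. Windows were present for 13 of the 16 replication genes and 14 of the 19 mitosis genes, and a gene with several windows was counted once. The 13 include Rrm2, whose intensity was not analysed. The E2F letters TTTCCCGC, TTTCGCGC, TTTGCCGC or TTTGGCGC, on either strand, were in the windows of 6 of 13 replication genes (46.2%), Mcm3, Mcm5, Mcm6, Mcm7, Cdt1 and Cdc6. They were in those of 1 of 14 mitosis genes (7.14%), Cdk1, and of 2.61% of all 27025 genes. These 4 promoters with E2F letters are shown because the letters lie before the start of the gene, and each run covers the 180 bases up to the start, 5′ to 3′ along the gene. Capitals mark the E2F letters on either strand, and where 2 matches overlap they are joined, and other letters are not marked. Mcm5 lies at chr8:75109329-75109508 on the plus strand, Mcm6 at chr1:128359706-128359885 on the minus strand, Mcm7 at chr5:138171884-138172063 on the minus strand and Cdc6 at chr11:98907971-98908150 on the plus strand.
Mcm5: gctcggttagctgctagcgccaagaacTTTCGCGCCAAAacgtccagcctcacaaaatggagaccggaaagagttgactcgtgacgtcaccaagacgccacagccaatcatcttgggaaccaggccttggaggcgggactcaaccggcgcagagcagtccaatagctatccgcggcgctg
Mcm6: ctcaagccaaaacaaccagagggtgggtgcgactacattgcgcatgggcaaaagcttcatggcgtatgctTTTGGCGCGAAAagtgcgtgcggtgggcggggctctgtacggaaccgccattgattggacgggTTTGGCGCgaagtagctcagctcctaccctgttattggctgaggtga
Mcm7: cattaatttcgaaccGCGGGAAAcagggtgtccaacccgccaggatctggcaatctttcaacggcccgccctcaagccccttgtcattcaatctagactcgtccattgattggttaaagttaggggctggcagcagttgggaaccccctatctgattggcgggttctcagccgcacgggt
Cdc6: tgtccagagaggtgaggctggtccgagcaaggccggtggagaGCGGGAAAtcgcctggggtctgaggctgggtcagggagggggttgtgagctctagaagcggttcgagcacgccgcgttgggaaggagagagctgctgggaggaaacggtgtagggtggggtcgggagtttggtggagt

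The CHR letters TTTGAA or TTCGAA showed the opposite distribution. They were in the windows of 11 of 14 mitosis genes (78.6%), all but Ccnb1, Birc5 and Cenpe, of 2 of 13 replication genes (15.4%), Mcm2 and Mcm7, and of 21.7% of all genes. CCAAT was in those of 13 of 14 mitosis genes (92.9%), 8 of 13 replication genes (61.5%) and 41.1% of all genes, on either strand. CHR and CCAAT letters do not overlap in the 4 mitosis promoters shown, which are 4 of the 6 with both within 180 bases before the start, Ccnb2 and Mki67 being the others. Capitals mark CHR letters and CCAAT on either strand, so that TTCAAA and ATTGG are the same letters read on the other strand. Cdc20 lies at chr4:118437344-118437523 on the minus strand, Cdk1 at chr10:69352913-69353092 on the minus strand, Kif11 at chr19:37376202-37376381 on the plus strand and Top2a at chr11:99024190-99024369 on the minus strand.
Cdc20: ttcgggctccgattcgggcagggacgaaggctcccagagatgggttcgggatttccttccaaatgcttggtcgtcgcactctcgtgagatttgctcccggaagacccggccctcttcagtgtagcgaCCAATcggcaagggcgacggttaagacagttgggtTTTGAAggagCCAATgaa
Cdk1: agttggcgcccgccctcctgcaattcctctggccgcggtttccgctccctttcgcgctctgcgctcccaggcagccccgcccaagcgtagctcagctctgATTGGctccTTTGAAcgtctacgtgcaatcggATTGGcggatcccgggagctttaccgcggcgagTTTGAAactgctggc
Kif11: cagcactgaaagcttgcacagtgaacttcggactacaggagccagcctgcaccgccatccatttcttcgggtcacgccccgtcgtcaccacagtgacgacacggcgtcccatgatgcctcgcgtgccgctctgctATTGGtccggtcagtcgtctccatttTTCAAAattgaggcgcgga
Top2a: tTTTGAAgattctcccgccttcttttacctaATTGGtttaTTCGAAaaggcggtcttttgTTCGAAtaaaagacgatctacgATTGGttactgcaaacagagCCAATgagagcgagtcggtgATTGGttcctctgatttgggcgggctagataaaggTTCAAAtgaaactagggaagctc

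Genes outside the list showed a like distribution of E2F and CHR letters. Among 35 other replication genes with a window, such as those for origin recognition, clamp loading and DNA polymerases, 34.3% held E2F letters and 22.9% held CHR letters. Among 49 other mitosis genes with a window, for kinetochores, condensin and the spindle, 8.16% held E2F letters and 69.4% held CHR letters. CCAAT was in 57.1% of these other replication genes and 67.3% of these other mitosis genes, a smaller gap than among the listed genes. A match of letters is a description of the sequence, and binding was not measured.

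Replication genes were well above background in most cases. Of the 15 measured, 13 lay more than 1 log2 unit above it, while Cdc6 and Gmnn lay near it. Their median level was 9.53, at a median of the 76.1st percentile of all genes in the table, and the median of all genes above background was 9.09. Intensities also depend on how well each probe binds, so the order of genes by level is not an order of transcript number.

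The 6 subunits of the Mcm2 to Mcm7 helicase, which unwinds DNA at the fork, had mean levels between 9.004 and 10.39. Mcm7 was 10.43, 10.42, 10.51, 10.27, 10.38 and 10.33 in replicates 2, 4, 5, 6, 7 and 8, with a mean of 10.39 ± 0.086 (SD, n = 6). Mcm2 was 10.34, 10.39, 10.37, 10.32, 10.39 and 10.42 in the same order, 10.37 ± 0.037 (SD, n = 6). The ranges of Mcm7 and Mcm2 overlapped, and their highest arrays were different ones, replicate 5 for Mcm7 and replicate 8 for Mcm2. Mcm4 averaged 9.91 ± 0.057, Mcm5 9.70 ± 0.081, Mcm6 9.53 ± 0.050 and Mcm3 9.004 ± 0.070 (SD, n = 6).

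Pcna, the sliding clamp that holds DNA polymerase on its template, was the replication gene with the highest intensity, from 11.16 in replicate 4 to 11.36 in replicate 5, with a mean of 11.25 ± 0.077 (SD, n = 6). Rrm1, the large subunit of ribonucleotide reductase, which makes deoxynucleotides, averaged 10.54 ± 0.046, and Tyms, the synthase of thymidylate, averaged 9.65 ± 0.066 (SD, n = 6). Their highest and lowest arrays differed by 1.09-fold for Rrm1 and 1.14-fold for Tyms.

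The genes that license origins had lower intensities. Cdt1, which brings the helicase to origins, was 8.66, 8.76, 8.82, 8.75, 8.81 and 8.59 in replicates 2, 4, 5, 6, 7 and 8, a mean of 8.73 ± 0.088 (SD, n = 6). Cdc6, its partner in loading, averaged 7.66 ± 0.070, and Gmnn, which codes for geminin, the inhibitor of Cdt1, averaged 7.50 ± 0.033 (SD, n = 6). Cdc6 was above background in every array, whereas Gmnn was above it in 4 of 6, so the values of Gmnn describe a signal at background more than a level. Cdt1 and Gmnn had an r of 0.09 over the 6 arrays and of -0.85 without replicate 8, where both were at their lowest.

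Among the genes that start S phase, the cyclins Ccne1 and Ccne2 averaged 8.93 ± 0.097 and 9.34 ± 0.056 (SD, n = 6). E2f1 varied more than any other gene of the list. It was 9.46, 9.31, 9.65, 9.17, 9.34 and 9.62 in replicates 2, 4, 5, 6, 7 and 8, with a mean of 9.43 ± 0.188 (SD, n = 6). Replicates 5 and 8 were high and replicate 6 was low, a 1.39-fold difference between the extremes. Its SD was 2.81 times the median of genes at a like level and passed 98.0% of them.

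Mitosis genes had a median level of 10.04, at a median of the 84.6th percentile of all genes, and 19 of 19 were above background. The cyclins that pair with Cdk1 were among those with high intensity. Ccna2, the cyclin A of S phase and entry into mitosis, was 11.28, 11.27, 11.31, 11.43, 11.40 and 11.42 in replicates 2, 4, 5, 6, 7 and 8, a mean of 11.35 ± 0.071 (SD, n = 6). Replicates 6, 7 and 8 were thus all above replicates 2, 4 and 5, a pattern seen after the fact and not tested. Ccnb1 averaged 10.53 ± 0.053, Ccnb2 10.44 ± 0.087 and Cdk1, the kinase itself, 10.13 ± 0.039 (SD, n = 6). Cdk1 was lowest in replicate 8, where Ccnb2 was highest, and their r over arrays was -0.67, and -0.24 without replicate 8.

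The kinases that order mitosis were between 8.84 and 10.53. Plk1, which acts from entry to cytokinesis, averaged 10.53 ± 0.061, and Aurkb, of the complex that corrects chromosome attachment, 10.27 ± 0.052 (SD, n = 6). Aurka, of the spindle poles, averaged 9.65 ± 0.054, and its activator Tpx2 averaged 9.56 ± 0.022 (SD, n = 6). Tpx2 had the lowest SD of all 34 genes, with values of 9.53, 9.56, 9.56, 9.54, 9.58 and 9.59 in replicates 2, 4, 5, 6, 7 and 8. Of the spindle checkpoint, Bub1 averaged 10.04 ± 0.058 and Bub1b 8.84 ± 0.033, and Cdc20, which the checkpoint holds back, averaged 9.21 ± 0.057 (SD, n = 6).

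The genes for chromosome structure and movement had mean levels between 8.44 and 10.75. Top2a, the topoisomerase that untangles sister chromosomes, averaged 10.75 ± 0.026, and Mki67, the source of the Ki-67 protein that coats mitotic chromosomes and serves as a label of cycling cells, averaged 10.62 ± 0.083 (SD, n = 6). Mki67 was 10.59, 10.58, 10.52, 10.63, 10.70 and 10.74 in replicates 2, 4, 5, 6, 7 and 8, while Top2a stayed between 10.71 and 10.78. Replicates 7 and 8 were the highest for Mki67, whereas replicate 8 was the lowest for Top2a. The spindle motor Kif11 averaged 10.33 ± 0.033 and Kif20a, a motor of cytokinesis, 9.21 ± 0.034 (SD, n = 6). Cenpf and Cenpe, both of the kinetochore, averaged 9.44 ± 0.052 and 8.93 ± 0.061, and Birc5, the survivin partner of Aurora B, had the lowest mean of the group, 8.44 ± 0.075 (SD, n = 6). Foxm1, the transcription factor of mitosis genes, averaged 9.41 ± 0.028 and moved by 1.05-fold between its extreme arrays.

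**Figure D1:**
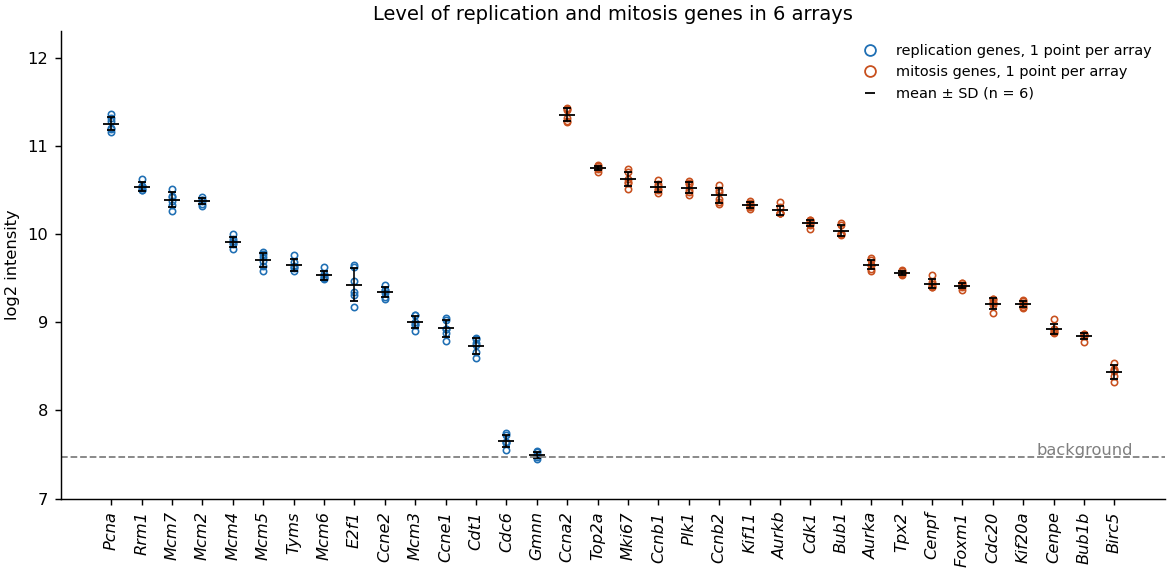
Log2 intensity of the 34 genes in each of 6 arrays, with replication genes in blue, mitosis genes in red, and the mean ± SD over arrays in black; within each group the genes run from high to low mean. The points of a gene lie close together beside the distance between genes, E2f1 has the widest range, and Gmnn sits on the dashed background line at 7.47.

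The spread over arrays was small in both groups and smaller in mitosis genes. The median SD was 0.070 for replication genes, 0.053 for mitosis genes and 0.076 for all genes above background. As coefficients of variation on the linear scale these were 4.81%, 3.69% and 5.27%. E2f1 was the only one of the 34 genes with an SD over 0.1, a value passed by 31.2% of all genes above background.

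SD falls with level on these arrays, so each gene was also set against the median of genes in the same of 20 bins of mean level. Of the replication genes 9 of 15 (60%) were under that median, and of the mitosis genes 15 of 19 (78.9%), where 50% is the share of all genes by construction. The median ratio to the bin was 0.97 for replication genes and 0.82 for mitosis genes. The lowest positions within their bins were those of Gmnn, Tpx2, Foxm1, Top2a and Kif20a, all under the 5th percentile. The ratio of the median SDs of replication and mitosis genes was 1.32. With each array left out in turn it ran from 1.10 without replicate 7 to 1.56 without replicate 8. Without replicate 8, Gmnn fell below background and was left out of the ratio as well. Members of a list are not replicates, so no test was made of this ratio.

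**Figure D2:**
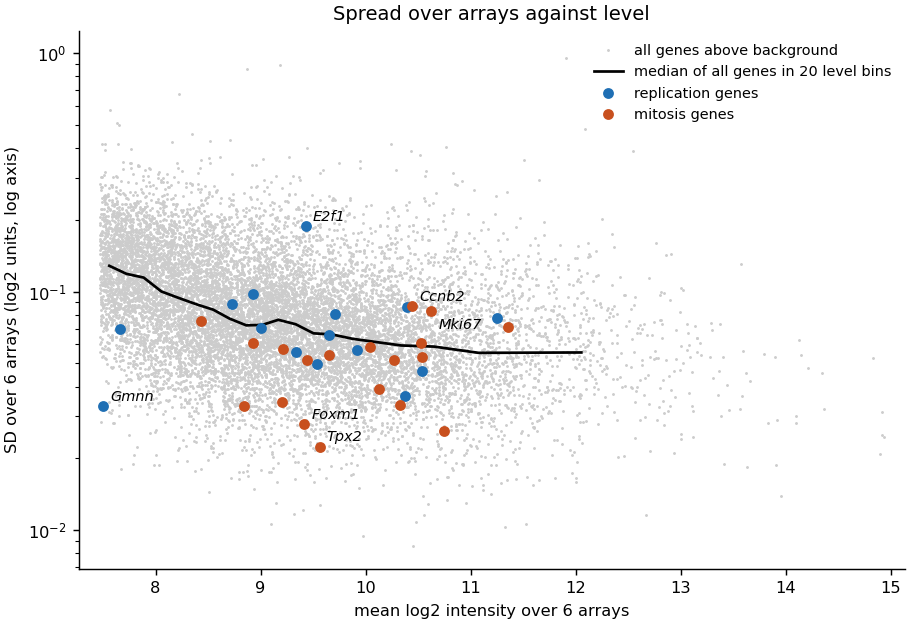
SD over 6 arrays, on a log axis, against mean log2 intensity for all genes above background (grey), replication genes (blue) and mitosis genes (red), with the median SD in 20 bins of level as a line. Most mitosis genes lie under the line, E2f1 lies far above it at 0.188, and Tpx2 and Foxm1 lie near the lower edge at 0.022 and 0.028.

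The mean over all replication genes was 9.44, 9.44, 9.53, 9.42, 9.49 and 9.47 in replicates 2, 4, 5, 6, 7 and 8, a mean of 9.46 ± 0.041 (SD, n = 6). The mean over mitosis genes was 9.86, 9.86, 9.89, 9.86, 9.90 and 9.91 in the same order, 9.88 ± 0.023 (SD, n = 6). The highest and lowest arrays differed by 1.08-fold for replication genes and by 1.04-fold for mitosis genes. Replicate 5 was thus highest for the replication mean, and replicates 7 and 8 were highest for the mitosis mean.

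Replicate 5 was the highest array for 8 of 15 replication genes, Mcm5, Mcm6, Mcm7, Pcna, Rrm1, Cdt1, Ccne1 and E2f1, and for 6 of 19 mitosis genes, against 20.4% of all genes above background. Replicate 8 was the highest for 2 of 15 replication genes and 6 of 19 mitosis genes, Ccnb2, Bub1, Mki67, Cenpe, Cenpf and Tpx2, against 27.5% of all genes, so the share of mitosis genes was near that of all genes. Replicate 7 was the lowest array for 0 of the 34 genes, against 17.9% of all genes, and 14 of 19 mitosis genes were above their own mean there, against 47.3% of all genes. The difference between the mitosis mean and the replication mean ran from 0.36 in replicate 5 to 0.44 in replicate 8, with a mean of 0.42 ± 0.029 (SD, n = 6), and its size reflects probes as well as transcripts.

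**Figure D3:**
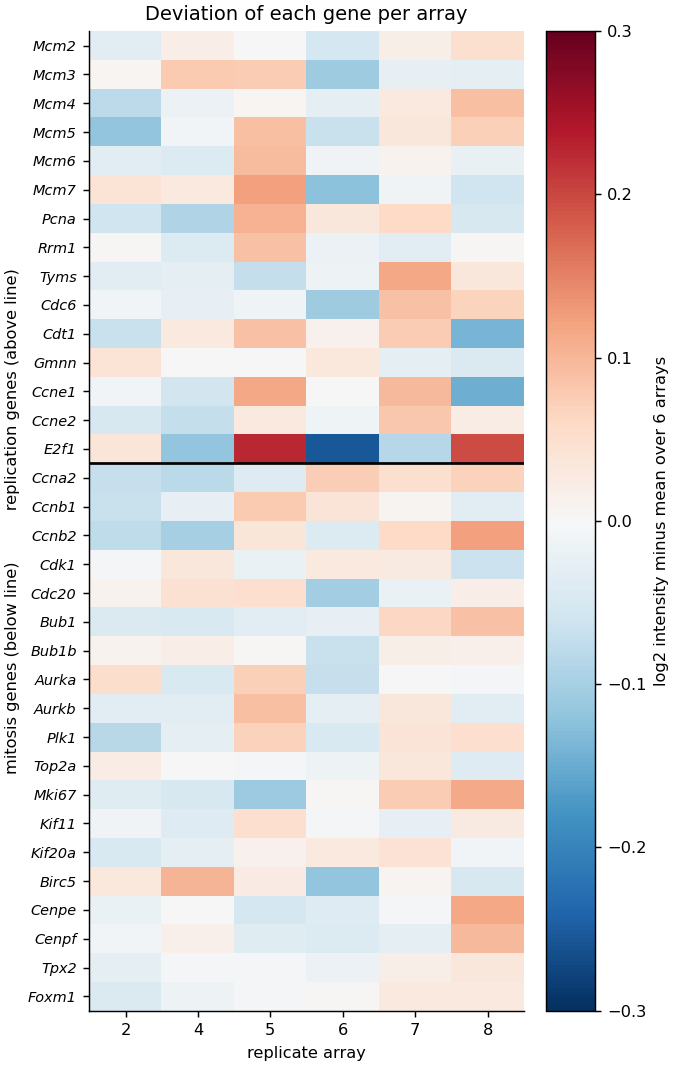
Log2 intensity of each gene minus its mean over the 6 arrays, with replicate arrays as columns, replication genes above the black line and mitosis genes below it; red is above and blue below the gene's own mean. Replicate 5 is red for 11 of 15 replication genes, against 52.1% of all genes, and replicate 7 for 14 of 19 mitosis genes, against 47.3%, and the strongest colours are those of E2f1.

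Genes of each group covaried weakly over the arrays. Pearson's r, averaged over pairs of genes, was 0.196 within replication genes (105 pairs), 0.138 within mitosis genes (171 pairs) and 0.167 between the groups (285 pairs), while all genes above background averaged 0.003. The share of positive pairs was 67.6%, 60.8% and 62.5%, against 49.96% of all pairs of genes. The differences between the averages were not tested. Each r rests on 6 arrays that all genes share, so these values are descriptions.

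The average within replication genes was 0.097 without replicate 5. Without replicate 8 it was 0.417, but Gmnn then fell below background and was left out as well. With Gmnn kept it was 0.289 without replicate 8, and with all arrays it was 0.284 without Gmnn. Within mitosis genes it ran from 0.094 without replicate 6 to 0.173 without replicate 5, and between the groups from 0.116 without replicate 6 to 0.250 without replicate 8 and Gmnn. With arrays centred on their medians the average was 0.349 within mitosis genes, 0.202 within replication genes, 0.243 between them and 0.069 over all genes above background, so the order of the groups turned with this centring, as it did without replicate 5.

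The helicase subunits averaged an r of 0.384 over their 15 pairs, of which 12 were positive. Mcm3 and Mcm7 had an r of 0.90, Mcm4 and Mcm5 of 0.83 and Mcm2 and Mcm4 of 0.81, while Mcm4 and Mcm7 had -0.21. Without replicate 8 these were 0.90, 0.88, 0.65 and 0.09. The 6 replication genes with E2F letters in their windows averaged 0.351 over 15 pairs, and 6 of these pairs join the subunits Mcm3, Mcm5, Mcm6 and Mcm7. Gmnn had no window and is not among them, and leaving out Gmnn also raised the average of all replication genes. The 11 mitosis genes with CHR letters averaged 0.103 over 55 pairs. Among mitosis genes the highest r was that of the kinetochore genes Cenpe and Cenpf, 0.96, both highest in replicate 8, and it was 0.73 without that array. Bub1 and Mki67 followed with 0.91, and 0.82 without it.

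Some of the highest values crossed the phases, such as Mcm5 with Plk1 at 0.98, Mcm4 with Tpx2 at 0.97 and Mcm6 with Aurkb at 0.96, and each was at least 0.94 without replicate 8. The lowest were those of Gmnn with Tpx2, -0.98, and with Mcm4, -0.95, and Gmnn was at background. The transcription factor E2f1 had an r of 0.74 with Rrm1, 0.59 with Mcm5 and 0.57 with Mcm7, but -0.05 with Ccne1 and -0.29 with Cdt1, which was 0.21 without replicate 8. Against the mean of the other replication genes E2f1 had an r of 0.47 and a rho of 0.71, and -0.35 without replicates 5 and 6, so the relation rested on those arrays. Foxm1 and the mean of the other mitosis genes had an r of 0.79 and a rho of 0.60, and an r of 0.70 without replicates 2 and 7.

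**Figure D4:**
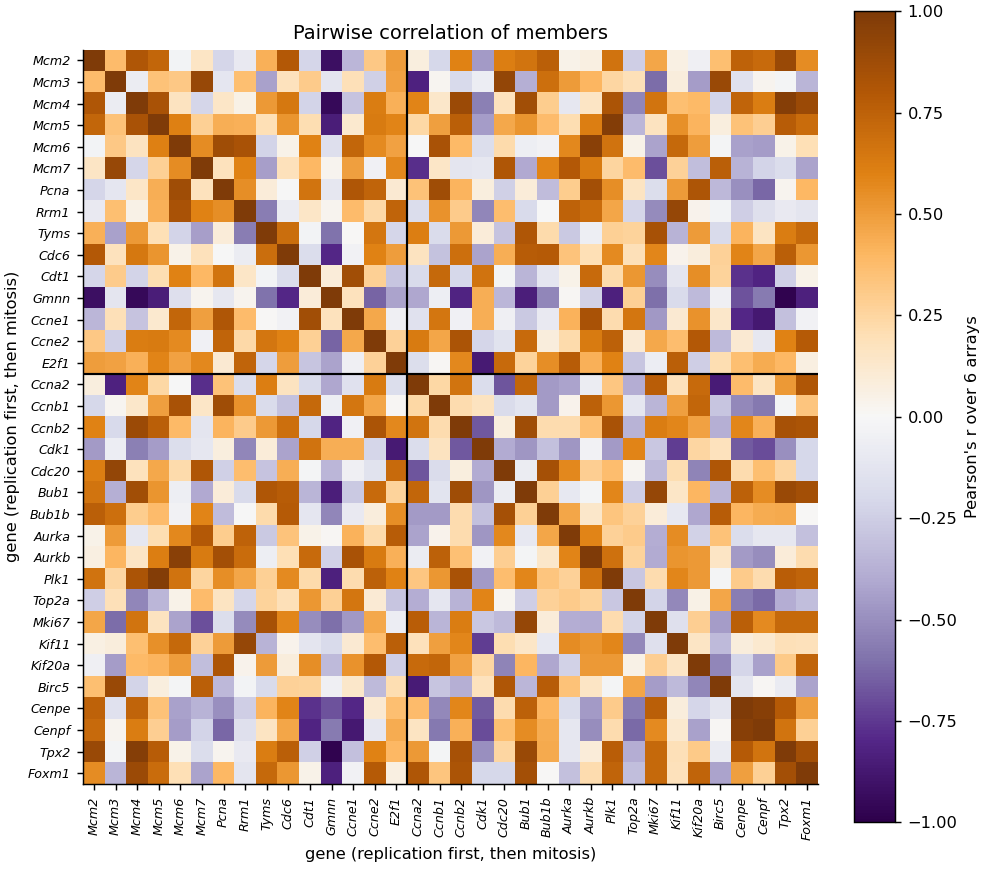
Pearson's r over 6 arrays for every pair of the 34 genes, from -1 (purple) to 1 (brown), with replication genes first and the black lines between the groups. The averages are 0.196 within replication genes, 0.138 within mitosis genes and 0.167 between them, and the row of Gmnn is purple, below 0, for 16 of 19 mitosis genes.

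The replication mean and the mitosis mean had an r of 0.70 and a rho of 0.71 over the 6 arrays, and an r of 0.87 without replicates 5 and 7. Leaving out each array in turn gave 0.60 to 0.88. A mean over many genes averages out the variation of single genes, so this r is not on the same scale as the averages over pairs. Both means come from the same arrays, and the part of differences between whole arrays was not tested.

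Genes of the same processes outside the list gave a second measure. Of 46 other replication genes measured, 43 were above background, and of 56 other mitosis genes, 55 were. Their means varied little over arrays, with SDs of 0.020 and 0.022 around 8.83 and 9.20 (n = 6). Their median SDs were 0.065 for replication and 0.063 for mitosis, so the gap between the phases seen among the listed genes was much narrower here. Against the bins of level the order was reversed, with median ratios of 0.80 for replication and 0.86 for mitosis. Under the median of their bins were 29 of 43 replication genes (67.4%) and 35 of 55 mitosis genes (63.6%). The mean r over pairs was 0.070 and 0.108.

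The replication mean of the listed genes had an r of 0.26 and a rho of 0.37 with that of the other replication genes, and an r of 0.88 without replicates 5 and 7. The listed and the other mitosis genes had an r of 0.78 and a rho of 0.71, but -0.30 without replicates 7 and 8, so that relation rested on those arrays. Replicate 5, the highest array for the listed replication genes, was near the lowest for the others, at 8.81 against 8.80 in replicate 6 and 8.85 in replicate 8. The mean of the other replication genes was thus not high in replicate 5. Between the means of the other replication and the other mitosis genes, r was 0.85 and rho 1 over the 6 arrays. Without replicates 6 and 8 this r was 0.85 too, and the part of differences between whole arrays was not tested.

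Among these other genes above background, Gins3, part of the helicase complex, and Tk1, thymidine kinase, had the highest SDs for replication, 0.123 and 0.120. The lowest were those of Mcm10, 0.022, and Orc2, of the origin recognition complex, 0.032. Among mitosis genes Cks1b, a partner of Cdk1, had 0.167 and the checkpoint gene Bub3 0.137, while the condensin gene Ncapd2 had 0.016 and the kinesin gene Kif2c 0.021. Among 25 genes that control the cycle, the highest SDs were those of Cdkn1a, the p21 inhibitor of cyclin-dependent kinases, 0.198, and Cdk6, 0.152, and the lowest those of Rbl1, 0.029, and E2f3, 0.031. Cdkn1a was 10.72, 10.98, 10.69, 10.88, 10.40 and 10.71 in replicates 2, 4, 5, 6, 7 and 8. It was thus lowest in replicate 7, as were 17.9% of all genes above background.

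Whether the listed genes followed the balance of neurons and progenitors was examined by limma, as the slope of each gene on the mean of 11 neuron markers, Tubb3, Stmn2, Elavl3, Elavl4, Dcx, Map2, Snap25, Nefl, Nefm, Gap43 and Rbfox3. The neuron mean was 12.00, 11.90, 11.94, 12.00, 12.05 and 12.07 in replicates 2, 4, 5, 6, 7 and 8. By limma's adjusted p-Value 0 of the 34 genes were called, and 0% of the 12783 genes tested were. At an unadjusted p-Value under 0.05, 1 of 34 passed, against 5.4% of all genes tested. That count was 0 without replicate 7 or without replicate 8, against 5.05% and 7.65% of all genes. It was 4 with median centring, against 9.97%, and 4 with the median of the markers, against 5.52%. With the median of the markers, 2 were mitosis genes with positive slopes and 2 were replication genes with negative slopes. An exact permutation test over the 720 orders of the arrays called 0 genes after adjustment. Its lowest p-Value was 0.0014, the lowest that 720 orders allow, so after adjustment over 12783 genes it could hardly call any. Before adjustment, 781 genes and 2 of the 34, Mki67 and Bub1, were under 0.05.

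The gene that passed with all arrays was Mki67, with a slope of 1.17 ± 0.42 log2 units per unit of the neuron mean (SE, n = 6, limma p-Value 0.026, adjusted p-Value 0.84). Its slope was positive, so Mki67 was higher in arrays with higher neuron markers. In all, 19 of 34 slopes were positive, 8 of 15 for replication and 11 of 19 for mitosis, against 45.2% of all genes tested. With median centring 27 of 34 were positive, against 63.1% of all genes, and without replicate 5 26 of 34 were, against 45.9%. The largest negative slopes were those of Mcm3, -0.77 ± 0.47, Mcm7, -0.76 ± 0.55, Birc5, -0.72 ± 0.50, and Cdt1, -0.69 ± 0.58 (SE), and none of them passed an unadjusted p-Value of 0.05.

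The same fit on the mean of 11 progenitor markers, Sox1, Sox2, Sox3, Nes, Vim, Msi1, Hes5, Fabp7, Olig2, Nkx6-1 and Notch1, called 0 of 34 genes by limma's adjusted p-Value, with 0% of the 12783 genes tested. At an unadjusted p-Value under 0.05, 0 of 34 passed, against 7.41% of all genes. The exact permutation test, with the same limit, called 0 genes after adjustment. Before adjustment, 694 genes and 1 of the 34, Ccnb1, were under 0.05. The progenitor mean itself varied little, 10.89, 10.94, 10.96, 10.96, 10.92 and 10.90 in replicates 2, 4, 5, 6, 7 and 8. Its 11 markers hardly covaried, with a mean pairwise r of 0.023 and 50.9% of pairs positive. For the neuron markers these were 0.637 and 96.4%. The progenitor mean is thus a weak measure of progenitors, and its slopes cannot decide whether the listed genes followed them. Cdt1 had the lowest p-Value, with a slope of 2.11 ± 1.03 (SE, limma p-Value 0.074, adjusted p-Value 0.68), and E2f1 had a slope of -1.95 ± 2.21 (SE). Slopes were positive for 10 of 15 replication genes and 8 of 19 mitosis genes, against 48.6% of all genes. These counts turned with the setting, to 5 of 15 replication genes without replicate 5 and with the median of the markers, and to 15 of 19 mitosis genes with median centring, against 57.7% of all genes. Of the other replication, other mitosis and control genes, 0 of 43, 0 of 55 and 0 of 25 were called on either mean by the same test.

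**Figure D5:**
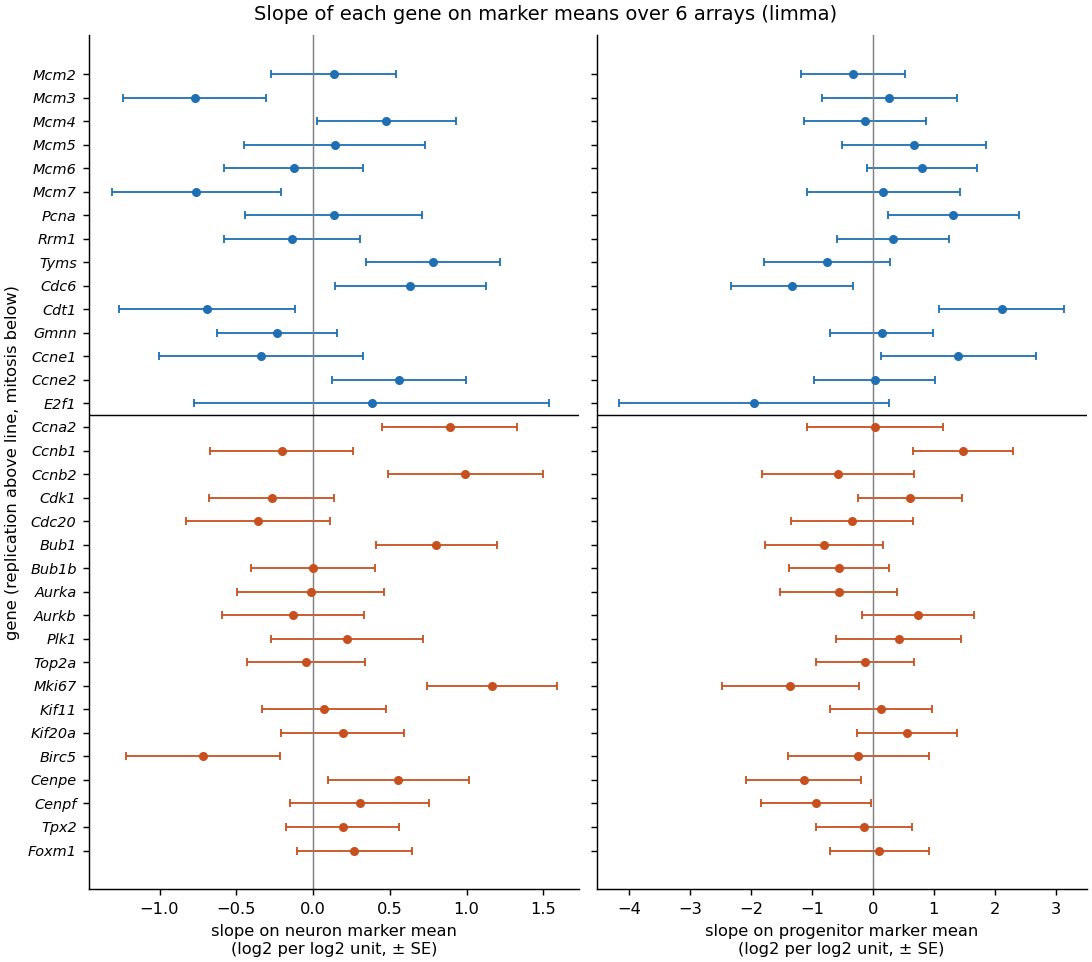
Slope ± SE of each gene's log2 intensity on the mean of the neuron markers (left) and of the progenitor markers (right) over 6 arrays, with replication genes in blue and mitosis genes in red. Apart from Mki67 on the neuron markers, at 1.17 ± 0.42, no slope lies far enough from 0 for its SE to pass an unadjusted p-Value of 0.05 by limma, and the axis on the right is wider because the progenitor mean varied less.

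The SEs set what the arrays could show. With 6 arrays and a neuron mean that moved by 0.16 log2 units, SEs of the slope for the 34 genes were from 0.37 to 1.16 log2 units per unit. On the progenitor mean, which moved by 0.07, they were from 0.79 to 2.21. As correlations, without p-Values because the members were chosen, the mitosis mean had an r of 0.55 and a rho of 0.54 with the neuron mean, and an r of -0.52 without replicates 7 and 8. The replication mean had an r of 0.02 with the neuron mean, which was 0.42 without replicates 5 and 7, and of 0.14 with the progenitor mean, and the latter was -0.67 without replicates 5 and 7. The mitosis mean had an r of -0.19 with the progenitor mean, and 0.50 without replicates 7 and 8. Of these 4 relations, 3 turned their sign when the arrays farthest from the median were left out.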

How the data were processed

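Affymetrix mouse exon arrays were run on 6 embryoid body samples of 1 group. The authors deposited linear intensities, which their methods derive by Robust Multi-array Averaging in Aroma Affymetrix, as a mean over the exons of a gene. The labels also name Affymetrix Expression Console. The methods describe a Grubbs' screen for outlying arrays. Whether these arrays had passed it, which arrays were normalized together and the genome build are not given in the sources used here. Values were taken to log2 with no pseudocount. Of 19613 names, 17541 matched RefSeq symbols and 1770 matched synonyms. The table held 0 columns from other samples.

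The members and lists were chosen with earlier results of these data known. All members are named, and from 3 other lists the 2 genes above background with the highest and the 2 with the lowest SD. The 8 promoters shown were picked after the positions of the letters were seen. Slopes were fitted with limma 3.58.1 in R 4.3.3 (lmFit and eBayes, two-sided, Benjamini-Hochberg over 12783 genes, threshold 0.05, without the markers that made the mean). Other values were computed in Python 3.11.15 with pandas 2.3.3 and scipy 1.17.1. Only the slope fit was tested on simulated data, with planted slopes larger than those found for the listed genes. The methods count 6 Huntington serum samples, and whether each was of a different animal or was tested on a separate culture is not stated, so SDs and p-Values measure the spread between these samples, which may be technical or between sera. No batch is given, and the number of arrays limits the precision.

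Alternatives were median centring, quantile normalization, a pseudocount of 16, background at the 99th percentile, no filter, each array left out, rank correlation, 6 members of both phases left out, Gmnn left out or kept (added after seeing the data), exact permutation, a variance trend, the median of the markers and the coefficient of variation.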

Additional observations from a re-analysis of the deposited data

Results flagged for a closer look

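Each of 41 sets of 6 values, the 34 genes and 7 means, was screened for an array far from the others, by the gap to its nearest neighbour over the whole range against Dixon's critical value for 6 values. Chance alone picks about 1 in 20 sets, or 2.05 of 41, and 3 were picked. Rrm1 was highest in replicate 5, at 10.63, with a ratio of 0.65. Bub1b was lowest in replicate 6, at 8.78, with a ratio of 0.80, and its SD over the other arrays was 0.007. Cenpe was highest in replicate 8, at 9.04, with a ratio of 0.68, and its SD over the other arrays was 0.022.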

How the results depend on the processing

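The 34 genes above background were 32 with the background at the 99th percentile and 33 to 34 when each array was left out, where Gmnn was lost without replicate 8. The mean level of replication genes was 9.46, and it was 9.75 with the background at the 99th percentile, 9.50 with a pseudocount of 16 and 9.45 to 9.60 with an array left out. Genes near background left the mean at 9.75 and at 9.60. The mean level of mitosis genes was 9.88, and it was 9.91 with a pseudocount of 16 and 9.87 to 9.88 with an array left out. The mean r within mitosis genes was 0.138, and it was 0.349 with median centring, 0.067 with rank correlation and 0.094 to 0.173 with an array left out, for which the cause was not tested. Within replication genes it was 0.196 and 0.097 to 0.417 with an array left out. Of 306 SDs of single genes recomputed under an alternative, 287 moved by less than their jackknife error and 19 moved more, 6 of them with median centring, 4 with quantile normalization and 9 with an array left out. On either marker mean 0 genes were called by limma's adjusted p-Value, among all genes and among the members, under every alternative that was run. No paired analysis was possible because the samples form 1 group.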
